A study of Mus musculus with 6 samples.

Results

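The cell cycle and DNA replication genes described here are 38 genes chosen by symbol, among the 24421 genes of a table of mouse liver mRNA. They are cyclins, cyclin-dependent kinases, regulators of transcription, replication licensing and DNA synthesis genes, and genes of mitosis. All 38 were found. Hepatic mRNA was sequenced from 3 WT and 3 Pai-1 +/- male C57BL/6 mice, 21 weeks old in the sample labels and fed standard chow without restriction. Pai-1 +/- mice are heterozygous, with 1 working copy of the targeted gene in every cell, and the WT mice were their littermates. No treatment was given to either group.

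The only value of each gene used here is the authors' mean normalized count, an average over all libraries with both genotypes together. Columns of counts by animal carry numbers that match no sample label, so no value could be given to a mouse or to a genotype. What follows is therefore the level of each gene in this liver tissue, without an SD, without a test and without a comparison of the genotypes. The spread between mice was not computed, since those columns were not used, and genes that stand next to each other in order of level are not said to differ. In bulk tissue, fewer cells of a type and less RNA per cell cannot be told apart.

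In a dividing cell, D-type cyclins with Cdk4 or Cdk6 phosphorylate the retinoblastoma protein Rb1, which releases E2F transcription factors. E2F proteins raise the genes for entry into S phase. Cdc6 and Cdt1 load the Mcm helicase on origins before S phase, in which DNA is then copied. Cyclins A and B with Cdk1 then drive mitosis, under a later programme of transcription that acts through the CHR element and NF-Y. Most hepatocytes of an adult mouse are quiescent, and the liver is known for returning to the cycle after loss of tissue.

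The promoters of 28 of the 38 genes were matched in the RefSeq table (GRCm38.p6), which gives 250 bases before to 50 bases after each start, in 31 windows. Not matched were Ccne2, Ccnd1, Aurkb, Foxm1, Mcm4, Cdc25c, Ccnd2, Rb1, Myc and Ccna2. The words searched, on both strands, were the E2F words TTTGGCGC, TTTCCCGC, TTTCGCGC and TTTGCCGC, the CHR words TTTGAA and TTCGAA, the NF-Y box CCAAT and the E-box CACGTG, the word bound by Myc. The following 4 promoters of genes of S phase entry are shown because they hold E2F words, which are in capitals. They lie at chr11:98907991-98908150 on the plus strand, chr8:75109349-75109508 plus, chr1:128359706-128359865 minus and chr9:109875419-109875578 plus, and each ends at the base before the start. Where words overlap, as in Mcm5 and Mcm6, the capitals run on.
Cdc6: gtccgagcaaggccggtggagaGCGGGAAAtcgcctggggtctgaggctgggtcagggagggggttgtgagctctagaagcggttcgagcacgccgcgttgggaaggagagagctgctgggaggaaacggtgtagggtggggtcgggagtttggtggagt
Mcm5: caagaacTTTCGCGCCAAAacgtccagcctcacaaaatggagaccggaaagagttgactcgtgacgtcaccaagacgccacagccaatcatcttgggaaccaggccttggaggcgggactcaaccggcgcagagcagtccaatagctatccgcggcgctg
Mcm6: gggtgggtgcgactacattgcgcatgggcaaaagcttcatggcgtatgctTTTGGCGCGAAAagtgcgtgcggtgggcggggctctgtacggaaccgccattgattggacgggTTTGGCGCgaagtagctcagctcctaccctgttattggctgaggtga
Cdc25a: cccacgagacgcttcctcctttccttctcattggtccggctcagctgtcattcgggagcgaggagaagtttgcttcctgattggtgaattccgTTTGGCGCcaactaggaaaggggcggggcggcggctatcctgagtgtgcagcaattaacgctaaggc

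The promoters of Cdk1, Cdc20 and Mki67 are shown for their CHR words, in capitals, at chr10:69352913-69353072, chr4:118437344-118437503 and chr7:135716380-135716569, all on the minus strand. In Cdk1 the first capitals mark an E2F word and the other two a CHR word each. All 7 printed promoters were chosen with their words already known, and are examples.
Cdk1: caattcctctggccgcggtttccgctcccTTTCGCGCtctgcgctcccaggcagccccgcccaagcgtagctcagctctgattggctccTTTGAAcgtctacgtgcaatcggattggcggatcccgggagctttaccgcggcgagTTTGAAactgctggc
Cdc20: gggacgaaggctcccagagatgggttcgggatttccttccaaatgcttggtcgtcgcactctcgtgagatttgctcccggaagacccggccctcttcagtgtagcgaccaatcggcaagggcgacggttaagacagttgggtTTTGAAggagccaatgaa
Mki67: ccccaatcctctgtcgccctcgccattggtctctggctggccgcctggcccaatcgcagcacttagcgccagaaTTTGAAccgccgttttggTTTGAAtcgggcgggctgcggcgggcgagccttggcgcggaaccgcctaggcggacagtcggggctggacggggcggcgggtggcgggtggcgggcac

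An E2F word was found in 10 of 28 members (35.7%), against 2.61% of all 27025 genes with a promoter in the table. A CHR word was found in 11 of 28 (39.3%) against 21.7%, and an NF-Y box in 21 of 28 (75%) against 41.1%. The E-box was found in 3 of 28 (10.7%), against 8.09% of all genes, and the 3 were Cdk4, Cdk6 and E2f3. Among protein-coding genes alone the shares were 3.29% for E2F, 20.2% for CHR, 42.3% for NF-Y and 8.91% for the E-box. By role, E2F words stood in 6 of the 7 matched genes of origin licensing and the Mcm helicase, and in 1 of 10 mitotic genes, Cdk1. CHR words stood in 8 of those 10 mitotic genes and in 3 of the 18 other matched genes, Mcm2, Mcm7 and E2f3. A match is a run of letters and no proof of binding, and no word says only that these letters are not in this window.

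**Figure D1:**
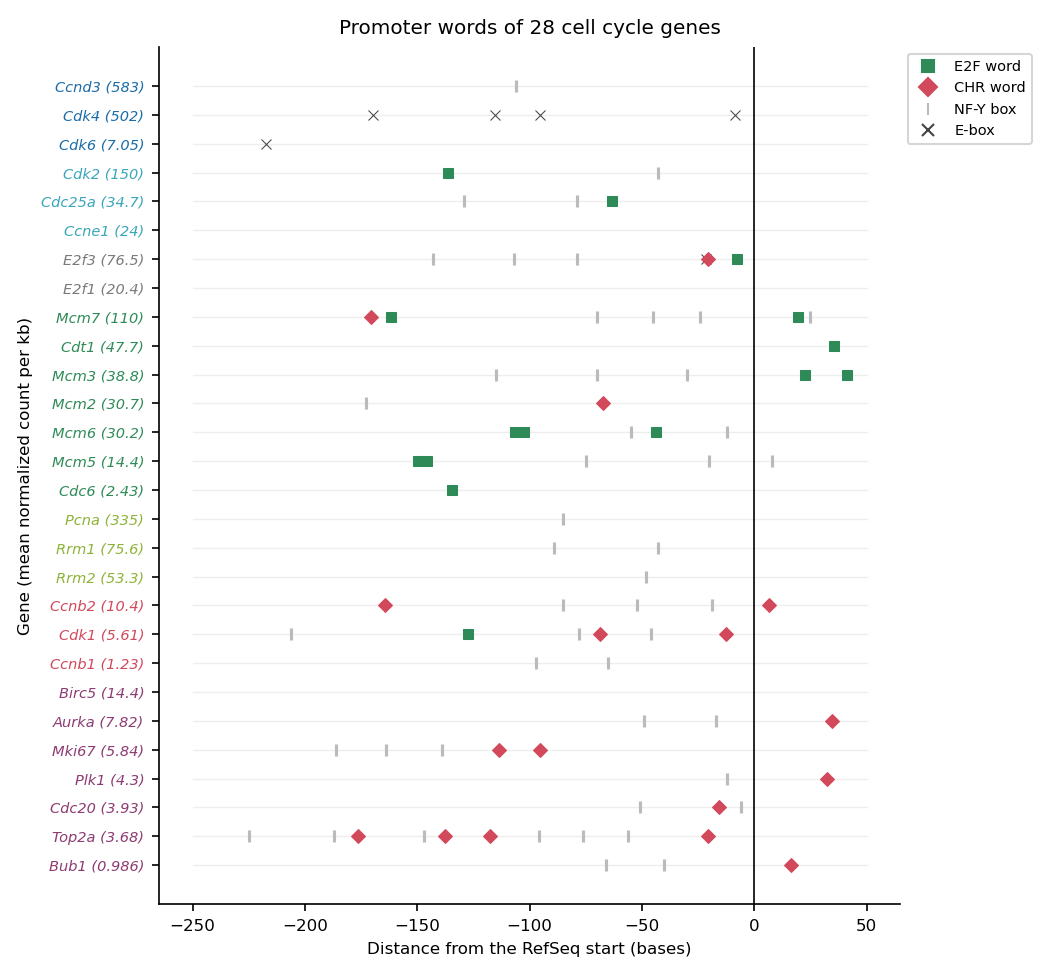
Promoter words by distance in bases from the RefSeq start (x axis) for 28 genes (y axis, coloured by role, with the mean normalized count per kb in brackets). Symbols mark the middle of each word and all windows of a gene are drawn on 1 line. CHR words lie in 8 of the 10 mitotic genes and E2F words in 6 of the 7 licensing genes.

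The 38 members together had a summed mean normalized count of 7179, of the table's total of 30045982. A mean above 10 was reached by 31 of 38 members (81.6%), against 53.1% of all genes in the table. That share counts genes at 0, which lower it: 17678 genes had a mean above 0 and 12971 a mean above 10. No member was at 0. The 7 members below a mean of 10 were Foxm1 at 9.92, Plk1 at 9.47, Aurkb at 9.13, Cdc20 at 7.04, Bub1 at 3.37, Ccnb1 at 3.07 and Cdc25c at 1.70. Cdc6, at 11.2, lay just above it.

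Levels of different genes are compared per kb, as the mean normalized count divided by the length of the longest protein-coding transcript. On that scale the median member stood at 22.2 per kb, and the median of the 16953 genes with a mean above 0 and a matched length was 57.1 per kb. Of the 38 members, 10 lay above that median of all genes. They were Ccnd3, Cdk4, Pcna, Myc, Cdk2, Ccnd1, Mcm7, Rb1, E2f3 and Rrm1.

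**Figure D2:**
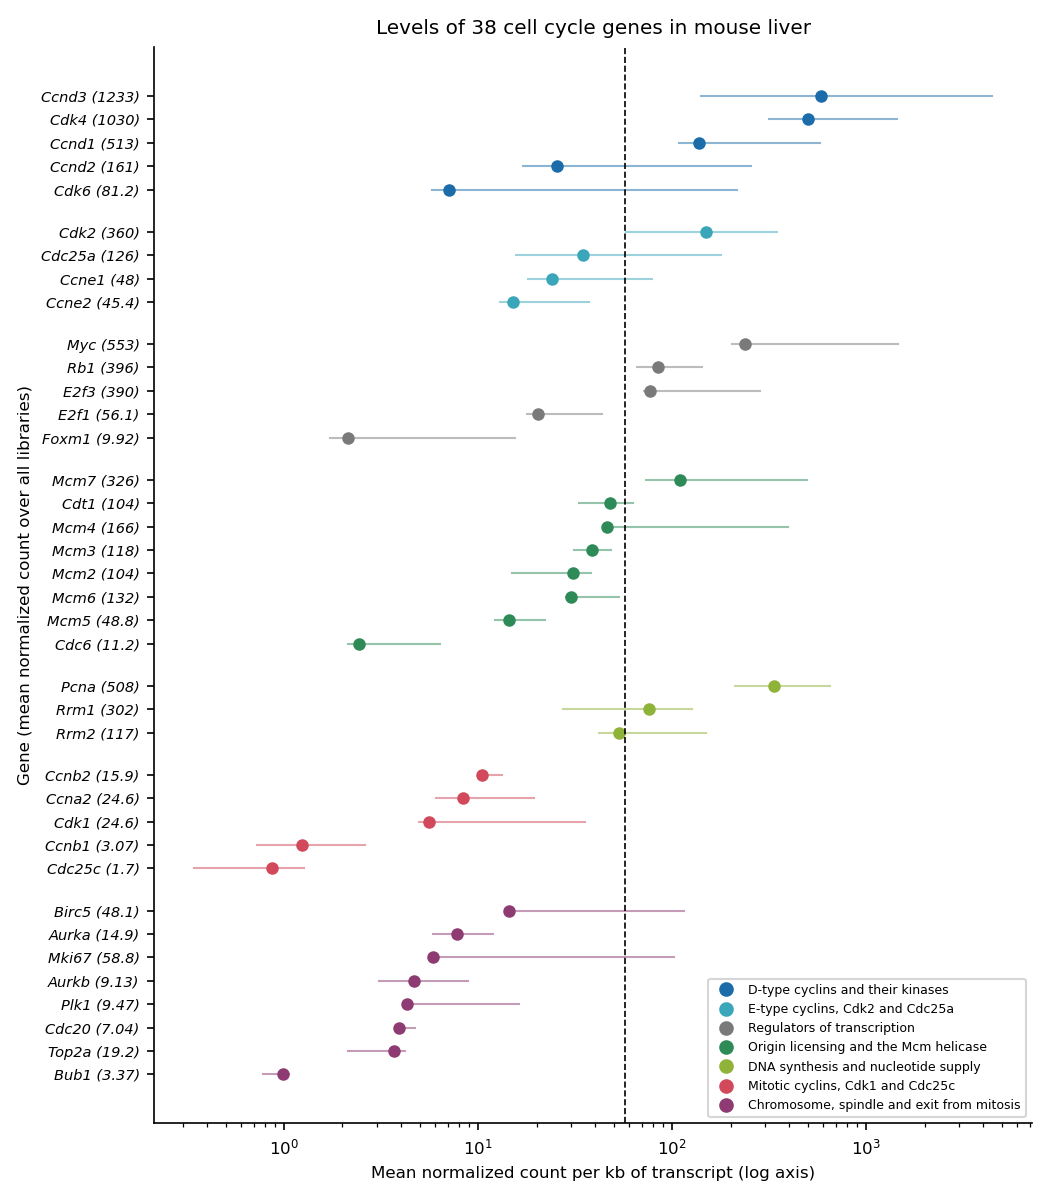
Level of each member as mean normalized count per kb (x axis, log scale), by role (y axis and colour), with the mean normalized count itself in brackets. Points use the longest transcript, lines span the lowest and highest value over 4 definitions of length, and the dashed line is the median of all genes, 57.1 per kb. All 13 mitotic members have their points to its left.

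Of the D-type cyclins and their kinases, which answer to growth signals, all 5 had a mean above 10. Cyclin D3 (Ccnd3) had the highest mean of any member, 1233, and 583 per kb, but with the union of exons it ranked 4th per kb, at 140.5, and Cdk4 1st, at 317. Cyclin D1 (Ccnd1) had a mean of 513 (137 per kb) and cyclin D2 (Ccnd2) 161 (25.4 per kb). Ccnd3 was thus 4.25 times Ccnd1 per kb, a ratio that ran from 1.29 to 32.4 over the definitions of length. Their kinase Cdk4 had a mean of 1030.4 and 502 per kb, while its close relative Cdk6 had 81.2 and 7.05 per kb. Cdk4 stood above Cdk6 by 71.2 times per kb with the longest transcripts and by 6.68 times with the shortest. The Cdk6 transcript is long, at 11525 bases, and Cdk4 shares 641 exonic bases on the opposite strand with Tspan31, whose mean was 12878.

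Of the genes that carry the cell into S phase, the kinase Cdk2 had a mean of 360 and 150 per kb. Cyclins E1 and E2, which are among its partners, were lower, with Ccne1 at 48.0 (24.0 per kb) and Ccne2 at 45.4 (15.1 per kb). The phosphatase Cdc25a, which activates Cdk2, had a mean of 126 and 34.7 per kb.

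Of the 5 regulators of transcription, 4 had a mean above 10. Myc, a driver of growth, had a mean of 553 and 237 per kb. The retinoblastoma protein gene Rb1, which restrains E2F, had 396 and 85.0 per kb. E2f3 had 390 and 76.5 per kb, and E2f1 had 56.1 and 20.4 per kb, so that E2f3 was 3.76 to 6.54 times E2f1 under all 4 definitions of length. Foxm1, which drives the genes of G2 and mitosis, was near the bottom of all members at 9.92 and 2.13 per kb.

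All 8 genes of origin licensing and the Mcm helicase had a mean above 10, with a median of 34.8 per kb. The 6 helicase subunits act as a ring with 1 copy of each, and their levels were unequal. Mcm7 had a mean of 326 and 110 per kb, Mcm4 166 and 46.4, Mcm3 118 and 38.8, Mcm2 104 and 30.7, Mcm6 132 and 30.2, and Mcm5 48.8 and 14.4. Mcm7 was 7.62 times Mcm5 per kb, and from 6.03 to 26.4 times over the definitions of length. A pseudogene, Gm5487, is 97.7% identical to Mcm7 over 2157 bases. On the opposite strand Mcm7 shares 321 exonic bases with Ap4m1, whose mean was 259, and 64 with Cops6, whose mean was 2810. The loaders differed too, with Cdt1 at 104 (47.7 per kb) and Cdc6 at 11.2 (2.43 per kb), a ratio of 19.7 that ran from 9.87 to 19.7 over the definitions of length.

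The 3 genes of DNA synthesis and nucleotide supply were all above 10. The sliding clamp Pcna, which also serves in DNA repair, had a mean of 508 and 335 per kb. The ribonucleotide reductase subunits Rrm1 and Rrm2 had means of 302 and 117, or 75.6 and 53.3 per kb. Their order per kb turned with the definition of length, from 1.42 to 0.506 as the ratio of Rrm1 to Rrm2, so no order is given. A pseudogene, Pcna-ps2, is 99.2% identical to Pcna over 781 of its 1518 bases.

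Mitotic cyclins, Cdk1 and Cdc25c were low, and 3 of 5 had a mean above 10. Cyclin B2 (Ccnb2) had 15.9 and 10.4 per kb, cyclin A2 (Ccna2) 24.6 and 8.31 per kb, and Cdk1 24.6 and 5.61 per kb. Cyclin B1 (Ccnb1) had 3.07 and 1.23 per kb, and the phosphatase Cdc25c, which activates Cdk1, had the lowest mean of all members, 1.70, and 0.87 per kb. With the coding length Bub1 was lower per kb than Cdc25c, at 1.06 against 1.26. Cdk2 exceeded Cdk1 by 26.6 times per kb with the longest transcripts and by 4.55 times with the shortest. Ccnb1 has 3 processed pseudogenes that match about 1290 of its bases at 97.3% identity or more. None of the 3 was found by symbol among the genes of the table. Whether reads that match these copies were lost from the count of Ccnb1 was not tested.

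Of the 8 genes of the chromosome, the spindle and the exit from mitosis, 4 had a mean above 10. Survivin (Birc5), a subunit of the chromosomal passenger complex, had 48.1 and 14.4 per kb, the highest level per kb of the mitotic members with the longest transcript. Over the definitions of length Birc5 ran from 14.1 to 114 per kb, and with the shortest transcripts Mki67 was higher, at 102 against 50.8. The proliferation marker Mki67 had a mean of 58.8, but its long transcript put it at 5.84 per kb. The kinases Aurka, Aurkb and Plk1 had means of 14.9, 9.13 and 9.47, or 7.82, 4.68 and 4.30 per kb. Topoisomerase Top2a, which untangles chromosomes, had 19.2 and 3.68 per kb. The spindle checkpoint gene Bub1 had 3.37 and 0.99 per kb, and Cdc20, an activator of the anaphase-promoting complex, had 7.04 and 3.93 per kb.

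Set side by side, the 13 mitotic members had a median of 4.68 per kb and the 25 others a median of 46.4 per kb. This split was made with the values known, and the difference is a description. The mitotic members had a summed mean normalized count of 239.9 and the others of 6939. None of the mitotic members lay above the median of all genes with the longest transcript, and 3 of the 25 others, Cdk6, Cdc6 and Foxm1, lay below Birc5. That count was 9 with the shortest transcript, 5 with the union of exons and 14 with the coding length. Of the 12 lowest members per kb 9 were mitotic, and of the 12 highest 0 were, except that with the coding length the counts were 10 and 1, the latter Birc5.

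**Figure D3:**
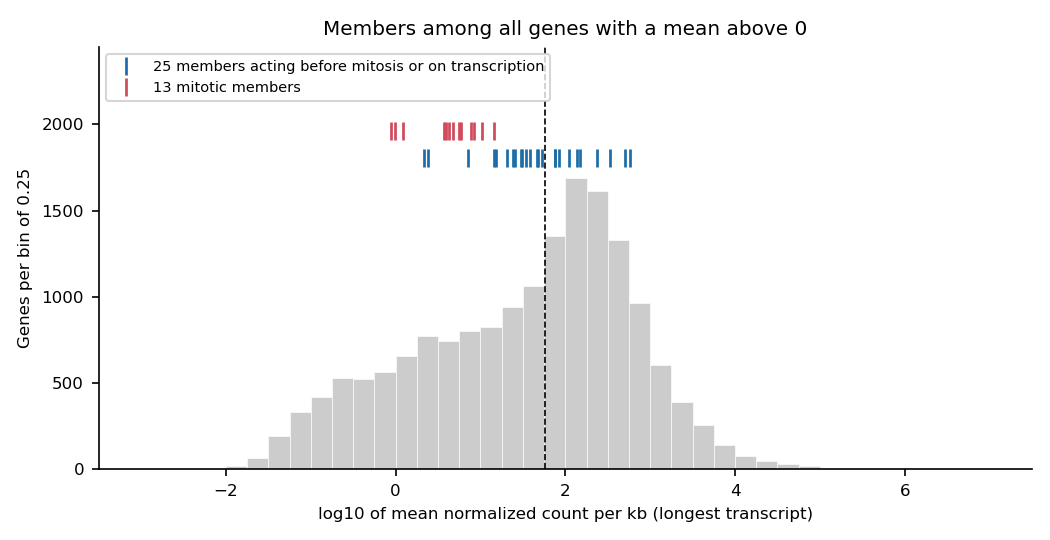
Histogram of all 16953 genes with a mean above 0 and a matched length (grey bars, number of genes, y axis) by log10 of the mean normalized count per kb (x axis). Ticks mark the 13 mitotic members and the 25 others, at heights without meaning, and the dashed line is the median of all genes. The mitotic ticks all lie to its left and the others lie on both sides.

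The other 85 cell cycle genes, listed by known function, had a median of 49.7 per kb, and 76 of 85 had a mean above 10. Their 22 mitosis genes had a low median like the mitotic members, 4.97 per kb, with 15 of 22 above 10. Of these 22, 3 lay above the median of all genes per kb, against 0 of the 13 mitotic members. The 20 cell cycle inhibitors and factors of the E2F, pocket protein and DREAM families, which hold cells out of the cycle or switch its genes, had a median of 79.1 per kb with 20 of 20 above 10. The 29 genes of origin licensing, origin firing and the replication fork had a median of 75.1 per kb with 27 of 29 above 10. The list labelled checkpoint kinases and phosphatases had 10 genes and a median of 99.0 per kb. It also holds Cdk7, Ccnh, Mnat1, Ccng1 and Ccnf, which are not checkpoint kinases or phosphatases, at 236, 297, 60.7, 377 and 137 per kb. Its other genes Chek1, Pkmyt1, Cdc25b, Chek2 and Wee1 stood at 3.86, 6.90, 12.1, 14.8 and 154 per kb. The 4 nucleotide supply genes had a median of 184 per kb, and all 14 genes of these lists had a mean above 10.

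The 4 highest of these per kb were Pttg1, the anaphase inhibitor securin, with a mean of 746 and 446 per kb, the replication initiator Mcm10 with 2115 and 435, thymidine kinase Tk1 with 568 and 394, and the origin recognition subunit Orc3 with 888 and 386. Pttg1 was thus a mitosis gene at a level near that of Cdk4. Tk1 shares 83 exonic bases with Afmid on the opposite strand, whose mean was 5029.

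**Figure D4:**
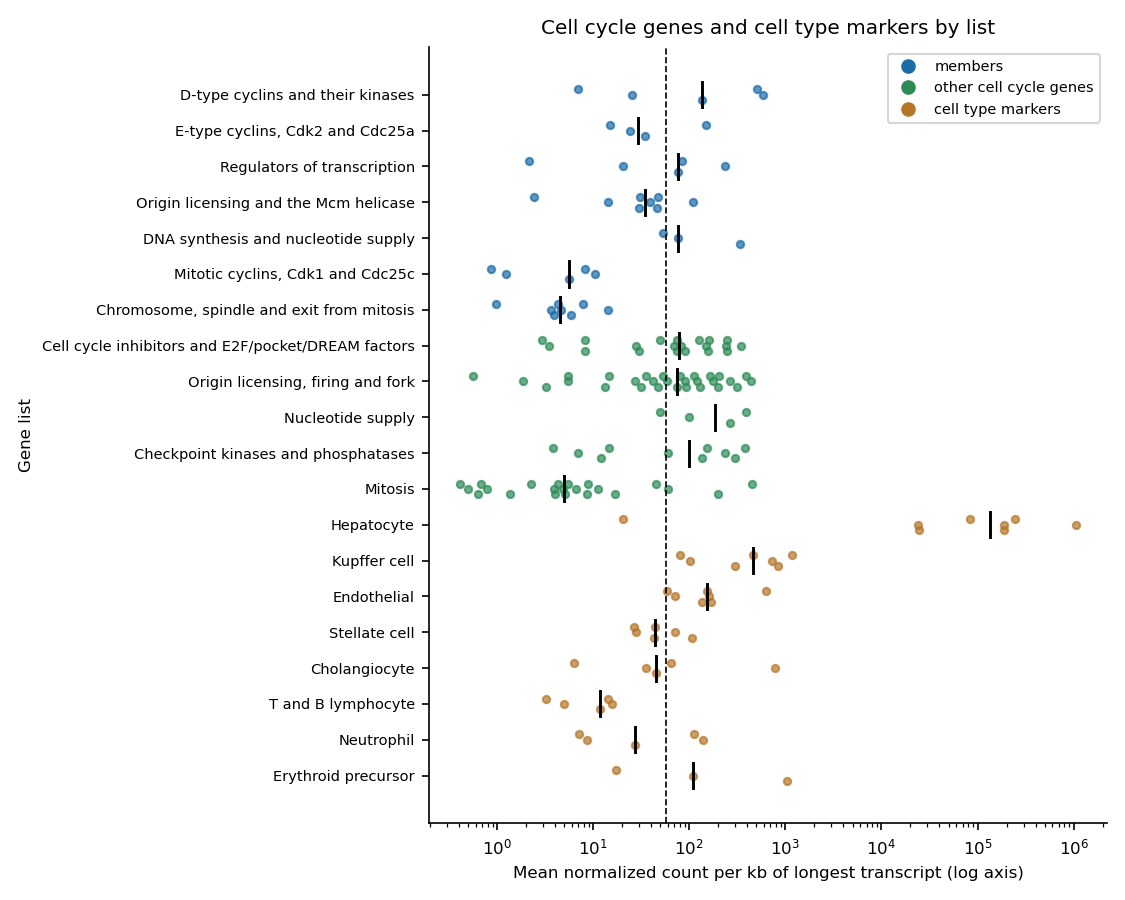
Mean normalized count per kb of the longest transcript (x axis, log scale) for each gene of each list (y axis), with black bars at the list medians and a dashed line at the median of all genes. Genes listed at 0 are not drawn. Both mitotic rows of members and the mitosis row of other genes have medians at or under 5.61 per kb.

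Markers of liver cells were checked against the tissue label. Of the 8 hepatocyte markers, 7 had a mean of at least 37617, with albumin (Alb) highest at 2155550, and Ass1 was listed at 34.5 while a near copy of it, Gm5424, was listed at 0. All 7 Kupffer cell markers (summed mean 6801), 7 of 7 endothelial (4781), 6 of 6 stellate (2261) and 5 of 5 cholangiocyte markers (1607) had a mean above 10. The summed mean was 95.6 for 5 lymphocyte markers and 173 for the 5 neutrophil markers in the table. It was 239.9 for the 13 mitotic members, but these sums do not allow for length or number of genes. Per kb of the longest transcript the medians were 11.8, 27.0 and 4.68, in that order. Of the erythroid markers Alas2 had a mean of 2136, while the globins Hbb-bt and Hba-a1 were listed at 0. Which cells the cell cycle mRNA came from was not tested.

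Reads may be shared with other genes for some members. Exons of 15 members overlap those of another gene, of a protein-coding gene in 11. In 9 members a stretch of at least 75 bases matches a transcript of another gene at 97% identity or more. For Foxm1 these stretches are its same-strand exon overlaps with Tex52 (144 bases) and Gm44596 (97 bases), and so are counted in both. The matching stretch spans at least 51.4% of the longest transcript in 3 of these 9, Ccnb1, Mcm7 and Pcna. In the rest it spans at most 8.80%. The sources used here do not state whether reads were counted by strand, so reads in the exonic bases that a gene shares with a partner on the opposite strand cannot be told apart. Among these are Ccnd1 with LTO1 (1100 shared exonic bases), Ccne2 with Ints8 (609), Ccna2 with Exosc9 (510) and Rb1 with Rcbtb2 (488). Neither an overlap nor a matching stretch was found for 17 members.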

How the data were processed

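Hepatic mRNA libraries of 3 WT and 3 Pai-1 +/- mice were sequenced as 75 bp single-end reads. Per the study's methods, the authors aligned reads to mm10 with STAR and ran DESeq2, and the submitters' processing notes also name HOMER. Versions, annotation and strand setting are not given in the sources used here. The signal used is the deposited mean normalized count, which the authors computed as the mean of counts over size factors. The 6 columns of counts by animal are headed by numbers found in no label and were left out, so depth per library is not given. The authors' fold changes, standard errors, test statistics, p-values and adjusted p-values are their own comparison and were not used. The edgeR and DESeq2 comparisons intended for the counts were not run.

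Lengths came from GENCODE M21 (GRCm38), matched by symbol for 23336 of 24421 genes (95.6%). The level is the mean per 1000 bases (kb) of the longest protein-coding transcript. Promoters came from RefSeq, and matching stretches in other genes were found with BLAST 2.17.0. Python 3.11.15, NumPy 2.4.6, pandas 2.3.3 and Matplotlib 3.10.9 were used, and the calculations were tested on simulated data. All 38 members are named, with the 4 highest other cell cycle genes per kb, the 10 genes of the checkpoint list and 5 of the cell type markers. The checkpoint list and these markers were picked for naming after their values were seen. The other markers are given by list. Members, lists and splits were chosen with earlier results of these data known. The ratios, the mitotic split and the printed promoters were chosen after values were seen. All 4 kinds of promoter word searched are reported. The result of the targeted gene is not reported here.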

Additional observations from a re-analysis of the deposited data

How the results depend on the processing

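No paired analysis was possible because the columns of counts carry no replicate numbers and match no sample. For the same reason the other normalization, the other filter, the DESeq2 test and the fits without each library were not run.

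With other thresholds on the mean, 38 members lay above 1, 35 above 5, 27 above 20, 21 above 50 and 18 above 100. With the shortest transcript, the union of exons and the coding length, in that order, the median level was 46.5, 15.3 and 45.9 per kb for all members, 8.0, 4.30 and 6.17 for the mitotic members, and 85.1, 31.4 and 83.0 for the others. The lower median of the mitotic members held in all 4. The shortest transcripts include annotated fragments, which raises levels. The ratio of Rrm1 to Rrm2 turned to 0.506 with the shortest transcript and 0.651 with the union of exons. Of the 703 pairs of members, 561 (79.8%) kept their order under all 4 lengths. The median percentile of the members was 39.8 among all genes above 0, 19.0 among genes with a mean above 10 and 36.4 among protein-coding genes. All 38 members were placed in each case, also those with a mean below 10. The columns of counts by animal were not used, so no error of a level is given, and low means such as that of Cdc25c rest on few reads per library.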
